A study of Homo sapiens with 8 samples.

Results

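Chromatin immunoprecipitation sequencing (ChIP-seq) peaks of Sp1 and CTCF were examined at 10 genes of the Sp and KLF family, out of 20033 protein-coding genes on the chromosomes of the GENCODE annotation. The genes were the Sp members SP1, SP2, SP3 and SP4 and the Krüppel-like factor members KLF6, KLF9, KLF10, KLF11, KLF13 and KLF16. They came from a list of names that was chosen with earlier results of these data known. A peak was assigned to a gene when its summit, the base of highest enrichment, lay in the gene or within 5 kb of it on hg38. The series held 8 libraries of U-2 OS, an established line from a human osteosarcoma, each crosslinked with 1% formaldehyde for 6 min. Of these, 5 had a peak list here and the inputs had none. Sp1 antibody 1 (MA5-32497), Sp1 antibody 2 (PA5-29165) and normal rabbit IgG (ab46540/1) were each used once, in cells with the endogenous knock-in V5-Halo-SP1, which the sample titles call the parental line. CTCF antibody ab128873 was used in replicates 1 and 2 of clone C32, a single clone with the endogenous knock-in FLAG-Halo-CTCF. All 5 lists thus came from Halo-tagged cells, and the tag in the Sp1 line sat at SP1, which is itself among the genes examined. The series text instead calls the CTCF cells wild type, and the labels were followed. The study's methods name different sequencing instruments for the Sp1 and the CTCF libraries. Target, cell line and instrument cannot be told apart where Sp1 is set beside CTCF.

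Sp and KLF proteins share C2H2 zinc fingers at the C-terminal end that read GC-rich DNA, the GC box and the related CACCC box, so members can recognise each other's sites. The Sp proteins carry glutamine-rich activation regions in front of the zinc fingers, whereas several KLF proteins recruit corepressors such as SIN3A. Sp1 is a broadly expressed activator found at many promoters without a TATA box. CTCF, an unrelated zinc finger protein, reads a long motif and marks chromatin boundaries together with cohesin.

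The sequence under the Sp1 antibody 1 summit is given for 7 of the 8 peaks near start sites, because these windows show which summits held a GC box. The other, that of KLF10, is given by its values only. Each runs 5′ to 3′ along the gene's strand over 101 bases of hg38 centred on the summit. Capitals mark the GC box GGGCGG on either strand, with overlapping boxes run together.
SP1, upstream peak, chr12:53379899-53379999, plus strand: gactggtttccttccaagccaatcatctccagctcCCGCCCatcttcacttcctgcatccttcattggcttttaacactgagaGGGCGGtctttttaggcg
SP1, intron 1 peak, chr12:53380726-53380826, plus strand: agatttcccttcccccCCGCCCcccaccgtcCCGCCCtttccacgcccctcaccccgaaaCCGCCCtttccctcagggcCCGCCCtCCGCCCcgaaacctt
SP2, chr17:47895934-47896034, plus strand: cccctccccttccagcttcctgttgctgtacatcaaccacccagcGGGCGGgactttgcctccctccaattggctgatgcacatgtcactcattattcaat
SP3, chr2:173965515-173965615, minus strand: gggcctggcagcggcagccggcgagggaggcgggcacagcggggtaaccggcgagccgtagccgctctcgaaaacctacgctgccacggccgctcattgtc
SP4, chr7:21427337-21427437, plus strand: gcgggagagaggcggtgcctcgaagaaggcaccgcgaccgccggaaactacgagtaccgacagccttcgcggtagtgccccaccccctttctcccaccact
KLF13, chr15:31326483-31326583, plus strand: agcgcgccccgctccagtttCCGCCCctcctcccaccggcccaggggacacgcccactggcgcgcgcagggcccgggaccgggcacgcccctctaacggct
KLF16, chr19:1864224-1864324, minus strand: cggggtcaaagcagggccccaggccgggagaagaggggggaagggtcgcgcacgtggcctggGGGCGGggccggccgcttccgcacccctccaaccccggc
The intron 1 summit of SP1 held 5 boxes, the upstream summit of SP1 held 2, and SP2, KLF13 and KLF16 held 1 each. The KLF10 window, which is not printed, held 2. SP3 and SP4 had no box in these windows.

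The stretches before 3 start sites that no Sp1 peak overlapped, and before that of KLF16, whose peak began further upstream, are given for comparison with the summits. They are RefSeq promoter sequences (GRCh38.p14) that end just before the start site for KLF9 and KLF16. For KLF11 and KLF6 the bases annotated as untranslated exon of any transcript were left out, which leaves 5 of the 6 boxes of KLF11. Capitals again mark GGGCGG on either strand.
KLF11, second start site, chr2:10043971-10044174, plus strand: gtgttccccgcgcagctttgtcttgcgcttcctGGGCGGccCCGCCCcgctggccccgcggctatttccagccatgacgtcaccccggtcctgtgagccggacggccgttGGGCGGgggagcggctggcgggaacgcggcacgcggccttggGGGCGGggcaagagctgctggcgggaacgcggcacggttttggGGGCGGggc
KLF6, chr10:3785282-3785459, minus strand: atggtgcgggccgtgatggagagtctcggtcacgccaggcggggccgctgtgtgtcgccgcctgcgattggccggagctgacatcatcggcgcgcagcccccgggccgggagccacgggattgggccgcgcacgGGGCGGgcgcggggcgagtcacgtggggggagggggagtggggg
KLF9, chr9:70414658-70414907, minus strand: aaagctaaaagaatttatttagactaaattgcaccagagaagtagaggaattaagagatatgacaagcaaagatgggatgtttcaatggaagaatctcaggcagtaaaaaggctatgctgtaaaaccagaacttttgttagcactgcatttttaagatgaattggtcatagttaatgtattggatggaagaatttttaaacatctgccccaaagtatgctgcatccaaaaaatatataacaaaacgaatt
KLF16, chr19:1863580-1863829, minus strand: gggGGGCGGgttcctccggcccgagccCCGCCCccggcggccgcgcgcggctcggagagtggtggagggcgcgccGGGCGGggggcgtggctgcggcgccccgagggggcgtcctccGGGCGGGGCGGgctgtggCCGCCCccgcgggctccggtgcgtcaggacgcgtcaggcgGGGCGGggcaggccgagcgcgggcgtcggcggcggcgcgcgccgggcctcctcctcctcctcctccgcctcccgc
KLF11 thus held several boxes with no Sp1 peak assigned to the gene, and KLF9 held none. KLF16 also held several without an Sp1 interval on them. Its antibody 1 interval began close by, however, at 1863886, just upstream of the printed stretch.

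For CTCF, a 30-base stretch around the best match to the CTCF core is given for 5 replicate 1 peaks, which run from an exact match to the poorest at these genes. The 12 core bases are in capitals, on the strand of the match in hg38.
KLF16, beyond the gene's end, chr19:1848820-1848849, minus strand: tctcctcgtCCAGCAGAGGGCgccttaagg
SP4, intron 5, chr7:21507799-21507828, minus strand: aagaaacctCCAGTAGGGGGTgctgagaac
SP3, chr2:173884591-173884620, plus strand: cagtcctggCCACAAGGTGGCagttgccca
KLF11, intron 3, chr2:10048863-10048892, minus strand: gcaatgtgaACAGAAGGGGGCactgtaagt
SP1, intron 2, chr12:53382010-53382039, plus strand: tccttgtctGCACTACGTTGCtgtttattt
The core beyond KLF16 matched exactly. That of SP4 and that of SP3 had 1 mismatch, that of KLF11 had 2 and that of SP1 had 3.

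Peaks of antibody 1 were assigned to 7 of the 10 genes, where 44.3% of all protein-coding genes had one, and peaks of antibody 2 to 5, where 31.0% had one. Both antibodies had a peak at 5 genes, where 26.9% of all genes did. Each of these 4 Sp genes had peaks of both antibodies. Of the 6 KLF genes, KLF10, KLF13 and KLF16 had an antibody 1 peak and KLF10 also an antibody 2 peak. KLF6, KLF9 and KLF11 had neither. CTCF peaks were found in replicate 1 at 9 genes (68.1% of all genes) and in replicate 2 at the same 9 (61.6%, and 61.1% in both), with SP2 as the exception. IgG had a peak at SP1 only, and at 0.0799% of all genes. The stretch searched under this rule grows with the gene, and the median length was 31.4 kb for the 10 genes and 27.5 kb for all. How far length moves these counts was not tested. With 1 library per Sp1 antibody and peak lists that hold no read counts, none of these differences was tested.

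**Figure D1:**
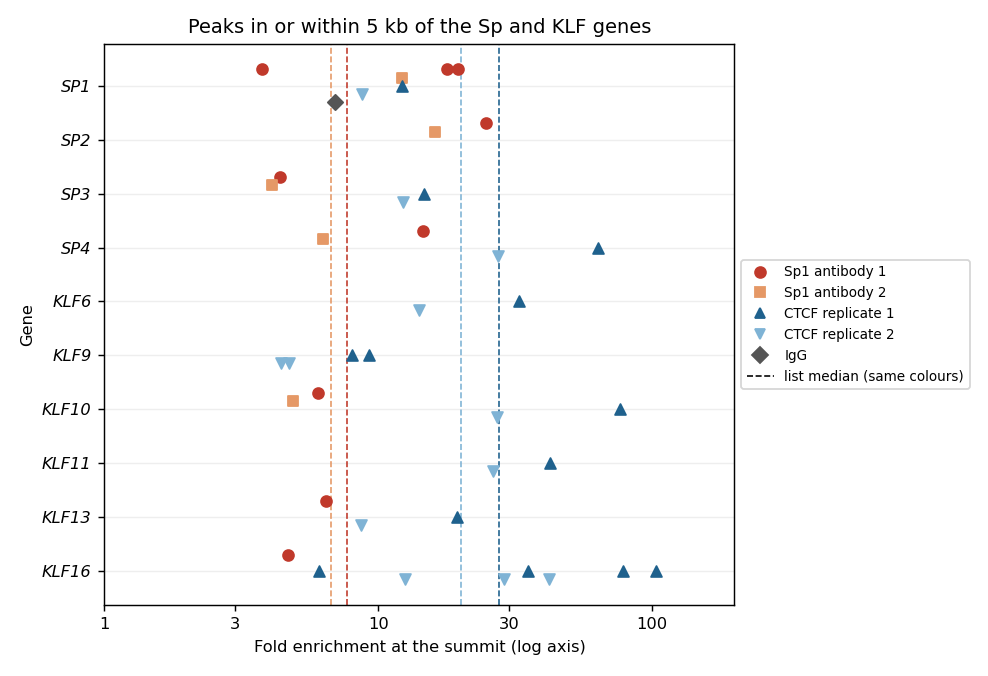
Fold enrichment (horizontal log axis) of every peak assigned to each gene (vertical axis), coloured by list, with the median of each whole list as a dashed line in the same colour. The antibody 1 peaks of SP2 and SP4 and those near the start sites of SP1 lie above the other antibody 1 peaks, the weak peak past the end of SP1 lies lowest, and SP2 has no CTCF peak.

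Fold enrichment is the peak caller's linear ratio of signal to control at the summit, and −log10 q its significance in the same list, so both describe 1 library. SP1 encodes Sp1 itself (chromosome 12, 53380176 to 53416446, plus strand). Antibody 1 had a fold of 19.6 (−log10 q 65.7) at a summit 227 bp upstream of the canonical start site and antibody 2 a fold of 12.3 (34.0) at 320 bp upstream, 93 bp away. The next antibody 1 summit, with 17.9 (51.7), lay 600 bp inside the gene in intron 1, which is 137 bp past an alternative start site. Antibody 2 had no peak there. SP1 therefore had antibody 1 peaks at separate start sites and an antibody 2 peak over the upstream one only. These positions are on hg38, without the tag that the paper places at the N-terminal end of Sp1 in these cells. The antibody 1 peaks were stronger than 90.5% and 88.5% of their list.

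Another antibody 1 peak of SP1 was weak, with 3.78 (2.204), and stood at the edge of the rule, 4991 bp past the end of the gene. Its 101-base window held no GC box but a CTCF core with 1 mismatch, where 2.58% of antibody 1 windows held a core with at most 1. Its whole interval of 406 bp lay inside CTCF peaks of both replicates, with folds of 137 and 71.9, whose summits were 342 and 341 bp away and thus just outside the rule at 5333 and 5332 bp. SP1 was the only one of the 10 genes with an antibody 1 peak that shared bases with CTCF peaks of both replicates, a pattern found at 10.1% of all genes.

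CTCF at SP1 was assigned through a summit in intron 2, with 12.2 in replicate 1 and 8.76 in replicate 2 (10.5 ± 2.45, SD, n = 2). The IgG peak over exons 2 and 3 (6.97, −log10 q 14.4) contained both CTCF intervals, and its summit lay 787 bp from that of replicate 1. It included all 155 bp of exon 2 and 1503 of the 1513 bp of exon 3, and was the 5th strongest of the 106 IgG peaks. The CTCF core under the replicate 1 peak had 3 mismatches, a limit of at most 2 being met by 80.2% of that list. No Sp1 interval at SP1 shared bases with this IgG peak. The IgG library came from the Sp1 line and not from clone C32, and the part of the IgG signal in these CTCF values was not tested.

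SP2, whose protein binds GC boxes and is also known at CCAAT promoters together with NF-Y, lies on chromosome 17 (47896150 to 47928957, plus strand). Its antibody 1 peak had the highest Sp1 fold of the 10 genes, 24.9 (83.1), at 252 bp upstream of the canonical and 166 bp upstream of the nearest start site. Antibody 2 gave 16.1 (42.8) at 150 bp upstream. These peaks were stronger than 94.6% and 89.5% of their lists, and their summits were 102 bp apart. The antibody 1 window held 1 GC box and 2 CCAAT boxes, and the antibody 2 window 2 CCAAT boxes and no GC box. CCAAT boxes were not particular to SP2, as the antibody 1 windows of the upstream SP1 peak and of KLF10 held 2 and 1. A CCAAT box was thus found in 3 of the 9 antibody 1 windows at these genes, and in 1 of the 5 antibody 2 windows. Over the whole lists the shares were 20.6% of antibody 1 and 20.0% of antibody 2 windows. These are peaks of Sp1 antibodies, and binding of the SP2 protein was not measured. The divergent noncoding gene SP2-DT starts within 1 kb, so the peak cannot be given to SP2 alone. The nearest CTCF summits were 6.02 kb upstream of the gene, outside the rule, with folds of 234 and 51.9.

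SP3 encodes an activator or repressor, depending on isoform and modification (chromosome 2, 173880850 to 173965373, minus strand). Antibody 1 had 4.39 (4.35) at 192 bp upstream and antibody 2 had 4.09 (3.65) at 177 bp upstream, so the summits were 15 bp apart. Of the antibody 1 list 13.0% was weaker, and of the antibody 2 list 12.4%. SP3 thus had the weakest start-site peaks of the Sp genes with either antibody, at a well shared position. The window held no GC box in either list, and a noncoding gene starts within 1 kb. CTCF had 14.8 in replicate 1 and 12.3 in replicate 2 (13.5 ± 1.75, SD, n = 2), 80786 bp into the gene in replicate 1 and past the canonical transcript.

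SP4, best known from neurons, lies on chromosome 7 (21428043 to 21514822, plus strand). Antibody 1 had 14.6 (33.2) at 696 bp upstream, and antibody 2 had 6.28 (7.52) at 669 bp upstream. A noncoding gene starts within 1 kb of both summits. The antibody 1 interval of 1483 bp was the longest Sp1 interval at these genes and reached across the start site, whereas the antibody 2 interval of 573 bp stayed upstream. Both windows held a CACCC box (CCACCC, 19.8% of antibody 1 and 15.8% of antibody 2 windows) and the ETS core CCGGAA (11.8% and 17.7%), and no GC box. CTCF had 63.7 and 27.4 (45.6 ± 25.6, SD, n = 2) in intron 5, 79746 bp from the start site in replicate 1.

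KLF10, a factor induced early by TGF-β, lies on chromosome 8 (102648784 to 102655725, minus strand). Antibody 1 had 6.02 (9.21) at 45 bp upstream of the start site, with 2 GC boxes in its window and the start of a noncoding gene within 1 kb. The antibody 2 peak, with 4.90 (5.91), lay elsewhere, 1903 bp inside the gene in intron 1 and 553 bp from an alternative start site. Among the 5 genes with peaks of both antibodies, KLF10 was thus the only one where no antibody 2 interval overlapped an antibody 1 interval. CTCF had 76.2 and 27.3 (51.7 ± 34.6, SD, n = 2) in coding exon 3.

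KLF13, known as an activator of the chemokine gene CCL5 in T cells, lies on chromosome 15 (31326835 to 31435665, plus strand). Antibody 1 had 6.47 (8.84) at 302 bp upstream, with 1 GC box, and the nearest antibody 2 summit lay 204 kb beyond the gene. CTCF had 19.4 and 8.68 (14.0 ± 7.57, SD, n = 2) near the far end of the gene, 108649 bp from the start site in replicate 1. Peaks of the targets therefore stood at opposite ends of KLF13, as they did at SP3 and SP4.

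KLF16, a GC box binding protein of the KLF9 subgroup (chromosome 19, 1852399 to 1863579, minus strand), was the gene where Sp1 and CTCF summits came closest within the rule. Antibody 1 had 4.68 (5.13) at 695 bp upstream and CTCF replicate 1 had 35.2 at 1335 bp upstream, 640 bp away, with 128 bp of their intervals shared. The replicate 2 peak there (12.6) shared no base with the antibody 1 peak. KLF16 also had the most CTCF peaks, 4 in replicate 1 and 3 in replicate 2. The 3′ UTR peak had 78.4 and 28.8, and the one past the end of the gene had 104 and 42.0 (72.8 ± 43.6, SD, n = 2), the highest CTCF fold at the 10 genes. That last summit lay within 1 kb of a start site of REXO1 and held the exact CTCF core, which 15.8% of replicate 1 windows held. A peak of 6.08 was found 1382 bp past the gene in replicate 1 and in no replicate 2 peak.

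**Figure D2:**
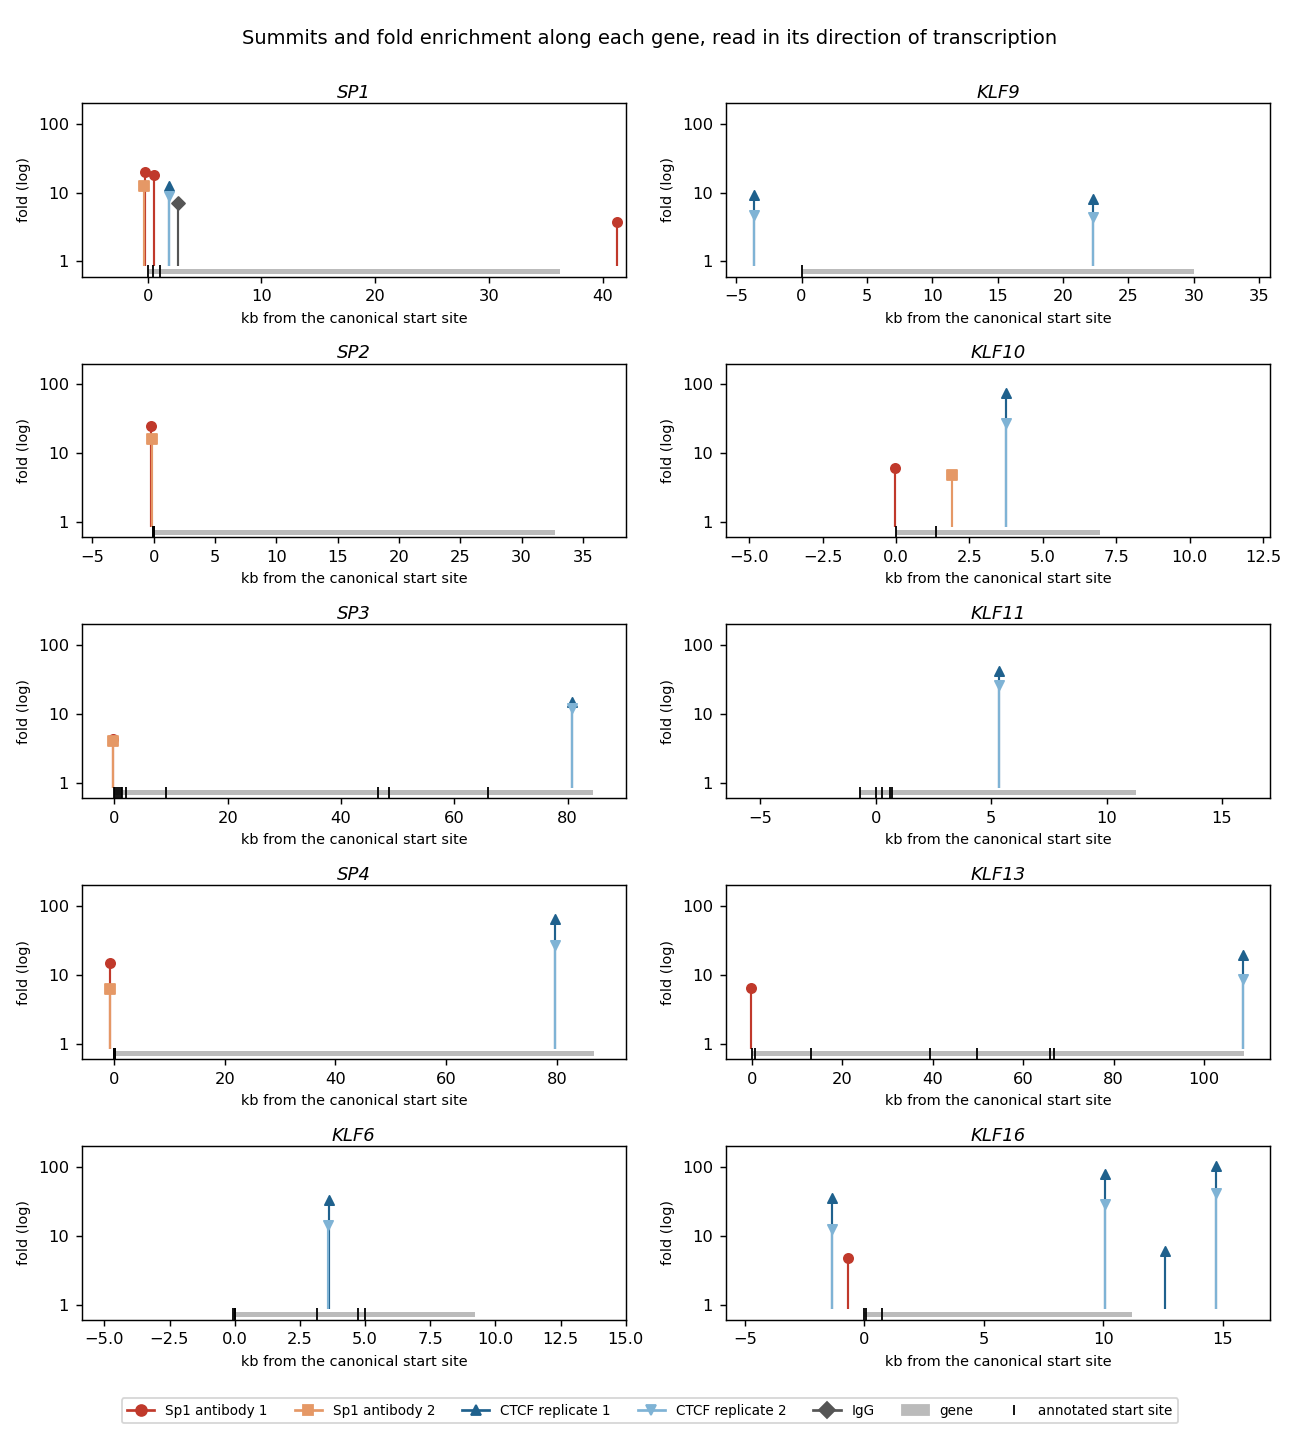
Summits of all assigned peaks along each gene, in kb from the canonical start site in the direction of transcription, with fold enrichment on the vertical log axis; the grey bar is the gene and the ticks are annotated start sites. Sp1 summits stand within 1 kb of the canonical start site except for 1 weak peak past the end of SP1 and the antibody 2 peak of KLF10, and most CTCF summits stand inside or beyond the gene.

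KLF6, KLF9 and KLF11 were without Sp1 peaks under the rule, by different margins. KLF9, a hormone-responsive repressor (chromosome 9, 70384604 to 70414657, minus strand), missed it narrowly. Antibody 1 had a summit of 10.0 (20.2) at 5473 bp upstream of the gene and antibody 2 one of 6.07 (7.91) at 5428 bp upstream, near the start of a noncoding gene. The nearest Sp1 summits were 65.5 kb from KLF11, a TGF-β-inducible relative of KLF10 (chromosome 2, 10042849 to 10054836, plus strand), and lay at RRM2 with 7.36 and 4.43. For KLF6, known as a tumour suppressor and injury-response gene (chromosome 10, 3775996 to 3785281, minus strand), they were 603 kb away at PITRM1 with 11.7 and 7.21.

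CTCF peaks were nevertheless present at these 3 genes in both replicates. KLF11 had 42.4 and 26.2 (34.3 ± 11.5, SD, n = 2) in intron 3, and KLF6 had 32.7 and 14.1 (23.4 ± 13.1, SD, n = 2) in intron 2, 442 bp from a start site in replicate 1. KLF9 had the weakest, 9.24 and 4.74 at 3618 bp upstream in replicate 1, and 8.03 and 4.43 in intron 1. All 4 values of KLF9 were below the medians of the CTCF lists, which were 27.5 and 20.0.

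Position relative to start sites differed between the lists at these genes. Of the 9 antibody 1 peaks 8 had a summit no more than 1 kb from one of the gene's start sites, as did all 5 antibody 2 peaks, against 2 of the 13 peaks in CTCF replicate 1. The share of all peaks of each list near a start site is not given here. Counted by gene, 7 had antibody 1 within 1 kb of a start site where 37.3% of all genes did, and 5 had antibody 2 where 24.1% did. By the 5 kb rule, 44.3% and 31.0% of all genes had these antibodies. A start-site position was thus common among all genes with an Sp1 peak and not particular to these 10. CTCF was within 1 kb in both replicates at SP1 and KLF6 only, where 24.2% of all genes had such peaks and 61.1% had both by the 5 kb rule.

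**Figure D3:**
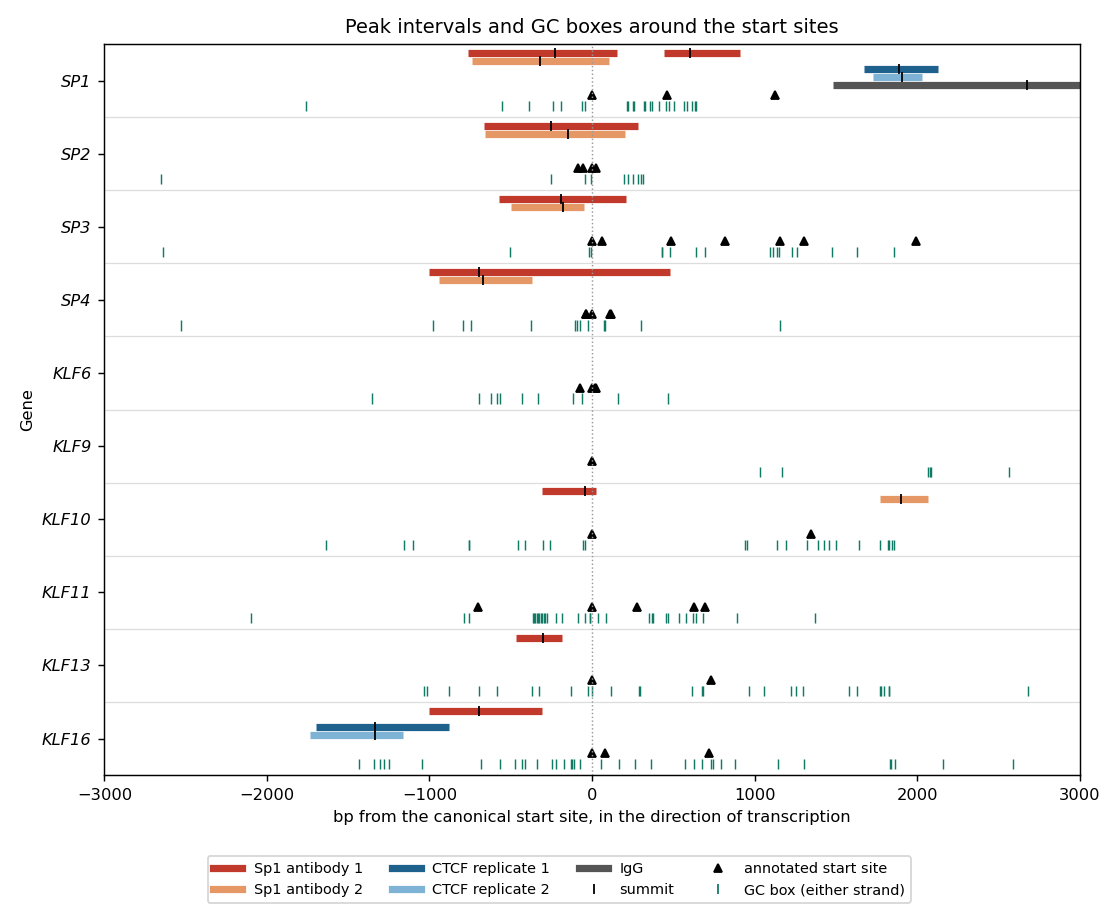
Peak intervals within 3000 bp of the canonical start site of each gene, with summits as black ticks, annotated start sites as triangles and GC boxes on either strand as green ticks. KLF11 has the most GC boxes within 1 kb of the canonical start site (32, against 24 for KLF16) and no Sp1 interval, and the antibody intervals of KLF10 lie apart.

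GC boxes near the start site did not follow the presence of a peak. Within 1 kb of the canonical start site KLF11 had 32 boxes, KLF16 24, SP1 23, KLF13 15, SP4 11, KLF6 and KLF10 10 each, SP2 9, SP3 8 and KLF9 0. Part of the KLF11 count came from a run of closely spaced boxes between -363 and -279 bp from that start site. The gene with the most boxes in this range had no Sp1 peak, and SP2, with the highest fold, had fewer than KLF6, which had no Sp1 peak. RefSeq start sites were found for 9 of the 10 genes and not for KLF10. SP1, SP3 and KLF11 gave more than 1 each, so the 13 start sites are not separate genes. In the 250 bases before each, 12 of 13 start sites had a box, where 54.2% of 21613 start sites of protein-coding genes had one. The highest number was 8, before the second start site of SP1, followed by 7 at KLF16 and 6 at the second start site of KLF11, and 3 or more were found at 18.6% of all start sites. Before the start site of KLF9 the GC content was 32.4%, against a median of 62.0%. The nearest KLF9 boxes lay 1032 and 1166 bp past that start site, outside the 1 kb range.

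**Figure D4:**
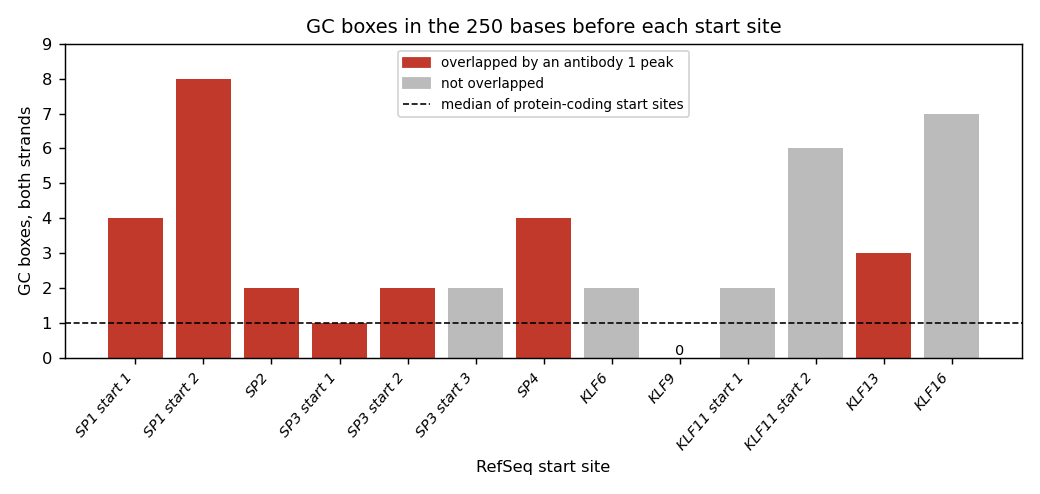
Number of GC boxes in the 250 bases before each RefSeq start site (bars), red where an antibody 1 peak overlaps the stretch and grey where none does, with the median of all protein-coding start sites as a dashed line at 1. The second start site of KLF11 and that of KLF16 have 6 and 7 boxes without an overlapping peak, but the KLF16 peak begins just upstream of its stretch.

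At the summits themselves, 6 of the 9 antibody 1 windows held a GC box, where 52.8% of the list did, and 1 of the 5 antibody 2 windows did, that of KLF10, where 36.7% of the list did. The 3 antibody 1 windows without a box were those of SP3, SP4 and the weak peak past the end of SP1. A CTCF core with at most 1 mismatch was found under 7 of the 13 peaks in replicate 1, where 50.8% of the list had one.

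Within the whole lists, the antibody 1 peaks of SP1 near its start sites and those of SP2 and SP4 were above the median of 7.72, and those of SP3, KLF10, KLF13, KLF16 and the weak one past SP1 were below it. With antibody 2, SP1 and SP2 were above the median of 6.75, and SP4, KLF10 and SP3 were below. The member medians were 6.47 and 6.28. For CTCF, 7 of 13 peaks in replicate 1 and 5 of 12 in replicate 2 were above the median of the list.

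**Figure D5:**
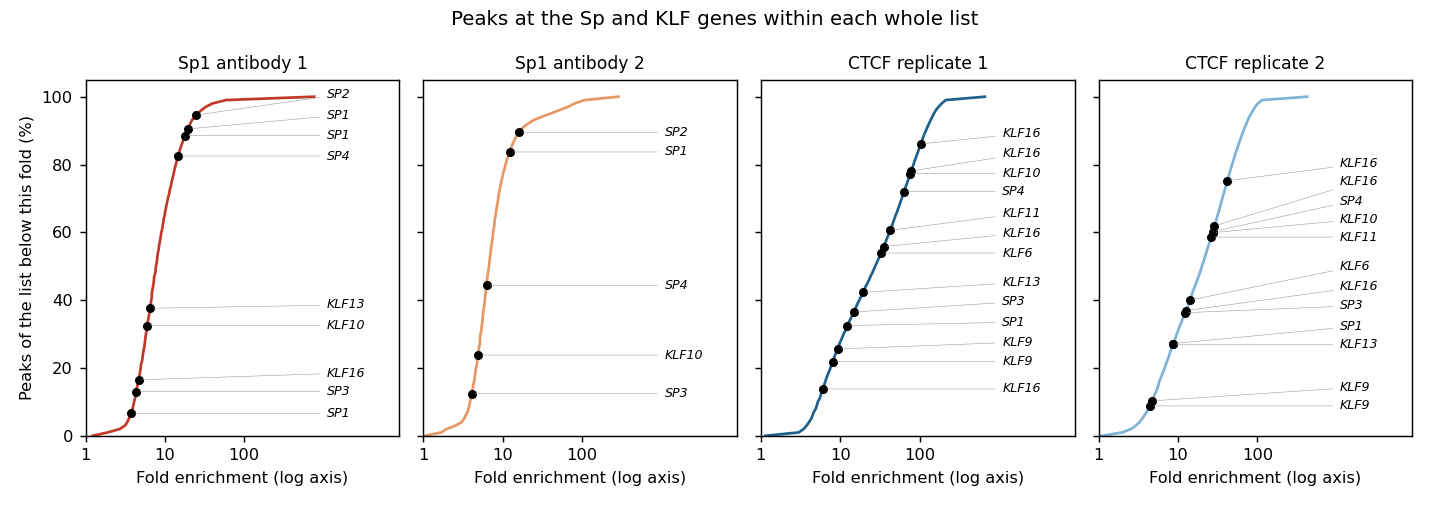
Cumulative distribution of fold enrichment (horizontal log axis) over each whole list, as the percentage of peaks below a given fold, with the peaks of the 10 genes as black points. The antibody 1 peaks of SP2 and SP4 and those of SP1 near its start sites lie above between 82.5% and 94.6% of the list, the weak peak past SP1 lies above 6.63%, and both KLF9 peaks lie below the median of each CTCF list.

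Antibody 2 gave the lower fold at each of the 4 peaks shared with antibody 1, those of SP1, SP2, SP3 and SP4. The log2 ratio of antibody 2 to antibody 1 was −0.68, −0.63, −0.10 and −1.22, with a median of −0.65, where 4281 matched peaks of the whole lists had −0.64 and quartiles of −1.10 and −0.03. SP4 thus lay below the lower quartile and SP3 within the range of the quartiles. The antibodies had 1 library each, so no replicate error stands behind these ratios.

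CTCF replicate 2 gave the lower fold at all 12 matched peaks in 9 genes. The log2 ratio to replicate 1 had a median of −1.19 and ran from −1.49 at the upstream peak of KLF16 to −0.27 at SP3, where the whole lists had −0.89 and quartiles of −1.17 and −0.62. The median of these genes was therefore slightly below the lower quartile. Summits of the replicates were 1 to 23 bp apart, with a median of 7.5 bp. At 5 of the 12 sites, those of SP1, KLF10 and KLF11 and both of KLF9, the summits were more than 10 bp apart, and the replicate 1 peak of 6.08 at KLF16 had no match.

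The 17 other Sp and KLF genes were counted for comparison. The 10 genes above were chosen with earlier results of these data known, so the comparison is not independent of the data. Antibody 1 had peaks at 5 and antibody 2 at 6, where 44.3% and 31.0% of all genes had one. Both were found at SP6, KLF1, KLF5 and KLF7 (26.9% of all genes), and 10 had CTCF in both replicates (61.1%). Of the other Sp genes here, SP7 had an antibody 1 peak only, and SP5, SP8 and SP9 had neither. Peaks of both antibodies were thus not common to all Sp genes. KLF1, the erythroid globin activator, had 12.6 and 9.90, and SP6, known from tooth development, had 8.74 and 5.16. Their summits lay 3851 and 10004 bp from the nearest own start site in antibody 1, so these peaks cannot be given to the promoters of KLF1 and SP6. Start sites of other genes near these summits are not given here. KLF7, a neuronal factor, had 8.44 at 21 bp from a start site with antibody 1 and 4.45 at 1 bp with antibody 2. KLF5, an epithelial growth regulator, had 7.24 at 22 bp with antibody 1 and 5.60 at 383 bp with antibody 2. Only at 3 of the 17 was the antibody 1 summit within 1 kb of an own start site, where 37.3% of all genes had one.

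Among 10 genes for partner proteins of the family, antibody 1 had peaks at 7 (44.3% of all genes) and antibody 2 at 3 (31.0%). The 3 were SIN3A, SIN3B and EP300, and 6 of the 10 had CTCF in both replicates (61.1%). The antibody 2 and CTCF counts were thus near the shares of all genes. SIN3A, the corepressor scaffold bound by KLF10 and KLF11, had 24.1 with antibody 1 at 27 bp from a start site. Its strongest antibody 2 peak had 119 but lay 83139 bp away from that summit, so the values belong to different sites. SIN3A also had a weaker antibody 2 summit within 1 kb of a start site, whose fold is not given here. EP300, a histone acetyltransferase gene, had 22.6 and 9.65 with summits 9 bp apart, and SIN3B had 8.29 and 5.94 at 38 bp apart. IgG had no peak at any of the 27 genes of these lists.

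SP1 shared its pattern of peaks in all 5 lists with 8 other protein-coding genes. By the Euclidean distance of the log2 strongest folds over the 5 lists, the nearest were AGBL5 at 2.51, TSNARE1 at 3.60 and PPP1R15B at 4.09. AGBL5 had 9.00 and 4.94 with the Sp1 antibodies, 8.33 and 2.63 in the CTCF replicates and 6.79 with IgG, so its IgG value was close to that of SP1 and its Sp1 values were lower.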

How the data were processed

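Peak lists of 5 U-2 OS libraries were used, 1 for each of 2 Sp1 antibodies, 1 for IgG and 2 for CTCF replicates. Per the methods of the study, the authors used Cutadapt for trimming, Bowtie2 for alignment to hg38 and SAMtools for duplicate removal, and MACS peaks were called for each library. The submitters' processing notes name cutadapt 2.6, Bowtie2 2.4.5, SAMtools 1.15.1, deepTools 3.5.4, MACS2 2.2.7.1 and bedtools 2.27.1. The deposited fold enrichment is a linear ratio to a control, and −log10 p and −log10 q are as deposited by the authors. The deposited score restates the −log10 q and was not used in a result. The methods describe a liberal p-value limit, merged control replicates and no local background for calls that entered a reproducibility analysis. The lists used here ended at a −log10 q of 1.30 to 1.43, and whether those settings were used for them is not given in the sources used here. The study reports read numbers in its supplement, but they were not used here. A missing peak was not detected at the depth of that library, and the site may still be bound.

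Genes and start sites came from GENCODE release 44, and the GC box GGGCGG, the CACCC box CCACCC, the ETS core CCGGAA, the box CCAAT and the CTCF core were searched, on either strand, up to 50 bp from each summit with Python 3.11.15, pandas 2.3.3 and pysam 0.24.0. Overlap meant at least 1 shared bp. Functions were tested on simulated data. All 10 genes were named with every peak. From the 17 other family genes and 10 partner genes, up to 6 of each list with the highest antibody 1 fold among those with peaks of both antibodies were named, and 3 genes most like SP1. The members and lists were chosen with earlier results of these data known. No p-value was computed.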

Additional observations from a re-analysis of the deposited data

How the results depend on the processing

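Of 36 alternatives over 8 results, 27 kept the value within 1.5 times. Requiring the summit inside the gene lowered the number of genes with antibody 1 to 1, with antibody 2 to 1 and with both to 0, since most Sp1 summits lie upstream of the start site. Summits of the antibodies within 100 bp left 3 genes with both, SP2 (102 bp) and KLF10 being lost. CTCF in both replicates within 1 kb of a start site left 2 genes, and the IgG peak within 1 kb of a start site left 0. The longer box GGGGCGGGG was found under 2 of the 9 antibody 1 peaks, where 18.8% of the list had it. The number of genes whose antibody 1 peak overlapped CTCF in both replicates was 0 when summits had to lie within 100 bp, and lay between 1 and 2 with a single CTCF replicate, KLF16 being added without replicate 2. A window of 10 kb added KLF9 to each antibody and SP2 to CTCF. Cutting antibody 1 to the length of the antibody 2 list left 5 of 7 genes. No paired analysis was possible because only the inputs, for which no peak list was used here, carry the same replicate numbers as CTCF. The lists give no read depth, which limits each statement on a peak found in a single list.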
